A study of Mus musculus with 2 samples.

Results

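The transcripts described here are 9661 assembled transcripts that carry no Ensembl name, out of 121429 transcripts with an exon value (7.96%). They were chosen by name alone, as the exon entries whose identifier starts with TCONS_, a prefix that the Cuffcompare and Cuffmerge programs give to transcript models they compare or merge after assembly. These programs can also give such names to reference transcripts. No measured value entered this choice. Of the other exon entries, 111672 have Ensembl names and 96 have names that start with linc. The table gives neither positions nor sequences for the TCONS identifiers, so the genes and genomic regions behind them were not analysed here. The label "absent from the annotation" therefore rests on the names, and overlap with annotated genes was not tested.

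The RNA came from wild-type mouse embryonic stem cells of the pluripotent XY line DTCM23/49, which had been depleted of feeder cells and were grown in serum and leukemia inhibitory factor. They received 200 µM of 4-thiouridine (4sU) for 10 min. Cells build this uridine analogue into new RNA, which can then be biotinylated and pulled out on streptavidin beads. The labeled RNA was sequenced as 1 library, and the RNA left behind, called total in the sample labels and preexisting in their description, as a second library that is called unlabeled here. Both are of biological replicate 1. Further replicates of the experiment that the study names were not analysed here, so with 1 library per pool every comparison below is a description across transcripts without a p-value. All 10 pluripotency genes examined were present, at mean exon values from 90.4 to 2760, whereas the highest of 6 fibroblast genes reached 10.2, with Col3a1 and Postn at 0, and the highest of 6 genes of differentiated cells 17.5.

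Values are relative abundances per transcript, normalized for length. The authors call them TPM, but the values of a library add up to 10 times what a TPM total would be, so a value of 10 here corresponds to 1 on the usual scale. The number of reads is not given, hence no counting error can be attached to a single transcript. Intervals on shares are 95% Wilson intervals and cover the number of transcripts only. Transcripts that share a locus are not independent, so these intervals are too narrow by an unknown amount.

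As background, a short pulse of 4sU marks RNA made during the pulse, and RNA that turns over quickly reaches a high labeled share sooner than stable RNA. Many unstable transcripts, such as promoter-associated and enhancer-derived RNAs or spliced-out introns, are found in newly made RNA and are scarce at steady state. Transcript assemblers join reads into transcripts without reference to gene names, so their output can hold such RNAs beside stable ones.

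Few assembled transcripts were at 0 in both libraries, and more were at 0 in the unlabeled library alone than in the labeled one alone. Of the 9661, 7646 were above 0 in both libraries (79.1%), 1420 in labeled RNA only (14.7%, interval 14.0 to 15.4%), 160 in unlabeled RNA only (1.66%, interval 1.42 to 1.93%) and 435 in neither (4.50%, interval 4.11 to 4.93%). Of the 111672 Ensembl-named transcripts, 23.5% were at 0 in both libraries, 8.54% were above 0 in labeled RNA only and 3.03% in unlabeled RNA only. The labeled-only share was higher than that of the assembled transcripts in several noncoding classes, at 16.9% of lincRNA, 16.9% of TEC, 18.2% of sense intronic and 20.02% of antisense transcripts. The RNA came from a bulk culture, so fewer cells with a transcript and less of it per cell cannot be told apart.

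A value of 0 in the labeled library was found for 595 assembled transcripts (6.16%, interval 5.70 to 6.66%), and in the unlabeled library for 1855 (19.2%). Ensembl-named transcripts were at 0 more often in both libraries, 26.6% in labeled and 32.1% in unlabeled RNA. Annotated noncoding classes stood still higher in the unlabeled library, with 69.5% of lincRNA, 52.3% of antisense and 45.6% of TEC transcripts at 0. TEC is the annotation's class of mostly single-exon models that still await experimental proof. An assembly is built from RNA that was sequenced, whereas an annotation lists transcripts of all tissues, and which reads went into the assembly is not given in the sources used here.

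**Figure D1:**
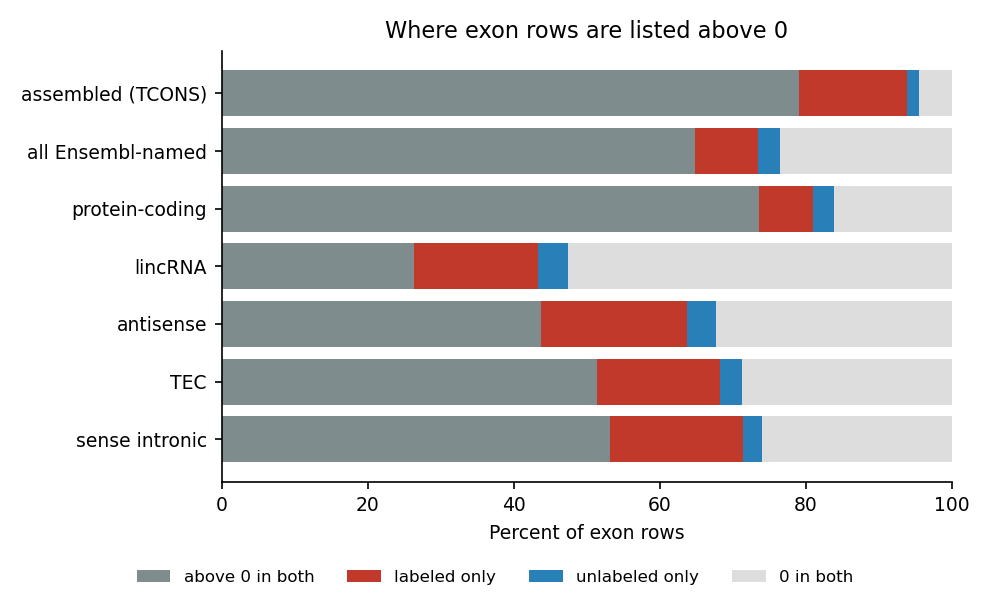
Percent of exon entries (horizontal axis) above 0 in both libraries, in labeled RNA only, in unlabeled RNA only or in neither, for the assembled transcripts and for Ensembl-named classes. Each bar adds up to 100%; 14.7% of assembled transcripts were above 0 in labeled RNA only and 1.66% in unlabeled RNA only, and 4.50% were at 0 in both, the smallest such share of the classes drawn.

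The 1420 transcripts above 0 in labeled RNA only were low: their labeled value had a median of 3.17 (quartiles 1.43 and 6.58), and 221 of them (15.6%) exceeded 10. The highest was TCONS_00028011, with a labeled value of 78.05, followed by TCONS_00047137 with 62.04 and TCONS_00059901 with 60.09. These levels lie well above the median labeled value of the assembled transcripts, 9.54, while the unlabeled library lists each at 0. The 160 transcripts above 0 in unlabeled RNA only were lower still, with a median unlabeled value of 1.29, and 4 of them exceeded 10. The highest were TCONS_00051066 at 20.16, TCONS_00003499 at 11.65 and TCONS_00067307 at 10.53. The last of these was at 0 for its exons only, as its intron value was 18.55 in labeled and 6.10 in unlabeled RNA. No fold is given against a value of 0, since the reads behind it are unknown.

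The level of the assembled transcripts lay within the range of the annotated classes. The median of the mean exon value over the libraries was 6.49 (quartiles 2.26 and 17.5), against 10.455 for retained intron, 6.995 for protein-coding, 6.55 for processed pseudogene, 5.645 for processed, 1.79 for sense intronic, 0.825 for TEC, 0.720 for antisense and 0 for lincRNA transcripts. The upper end was lower than that of protein-coding transcripts, with a 95th percentile of 78.3 against 242.5. The labeled value had a median of 9.54 (quartiles 3.24 and 25.9). In unlabeled RNA the median was 2.5 (quartiles 0.4 and 8.31). For protein-coding transcripts the corresponding medians were 6.52 and 6.585. Hence the assembled transcripts had the higher median in labeled RNA and the lower one in unlabeled RNA.

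The labeled value was above the unlabeled value in 8080 of the 9661 assembled transcripts, or 83.6% (interval 82.9 to 84.4%), and in 39.4% of Ensembl-named transcripts. These shares include transcripts at 0 in both libraries, which cannot be higher in either (4.50% of assembled and 23.5% of Ensembl-named transcripts). The 39.4% therefore does not mean that the rest were higher in unlabeled RNA. To measure the size of the difference, the log2 ratio of labeled to unlabeled exon value was computed for transcripts with both values above 0 and a mean above 1. This left 7363 assembled transcripts (76.2%) and 67404 Ensembl-named ones (60.4%). The 2298 assembled transcripts outside this set were those at 0 in at least one library and 283 with a mean of up to 1. As each library is scaled to its own total, a ratio has meaning only relative to other transcripts, and the median log2 ratio of all 74834 transcripts in the set was 0.0021.

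The median log2 ratio of the assembled transcripts was 1.70, or 3.24-fold, with quartiles of 0.73 and 2.70. That of the Ensembl-named transcripts was -0.14, with quartiles of -0.94 and 0.89. The medians were thus 1.84 apart on the log2 scale, and 87.2% of assembled transcripts had a ratio above 1 against 46.0% of Ensembl-named ones. The distributions overlapped, since the lower quartile of the assembled transcripts lay below the upper quartile of the Ensembl-named ones.

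A ratio at least 2-fold above the median of all transcripts was found for 5089 of the 7363 assembled transcripts, or 69.1% (interval 68.1 to 70.2%). Over all 74834 transcripts in the set it was found for 27.6%. A ratio at least 2-fold below this median was found for 333, or 4.52% (interval 4.07 to 5.02%), where the share over all transcripts was 21.2%. The first share is well above and the second well below that of the whole table. With 1 library per pool these are counts past a fold, not calls of a test.

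Among the annotated classes, the median of the assembled transcripts lay between those of TEC transcripts and lincRNAs. In order, the median log2 ratio was 2.01 for 133 sense intronic transcripts, noncoding RNAs that lie within introns of other genes, 1.88 for 946 TEC transcripts, 1.70 for the assembled transcripts, 1.33 for 1138 lincRNAs and 1.26 for 1294 antisense RNAs. Other noncoding classes were far lower, with 0.30 for 3844 processed pseudogenes, 0.16 for 12353 retained intron and -0.10 for 8100 processed transcripts. It was -0.38 for 33401 protein-coding transcripts. The quartiles of neighbours in this order overlap widely: those of TEC transcripts were 1.06 and 2.75 and those of lincRNAs 0.10 and 2.19. Protein-coding transcripts, with quartiles of -1.04 and 0.45, had an upper quartile below the lower quartile of the assembled ones. The medians of assembled and TEC transcripts were 0.18 apart on the log2 scale, with the TEC median higher, and those of assembled transcripts and lincRNAs 0.36 apart, with the lincRNA median lower.

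**Figure D2:**
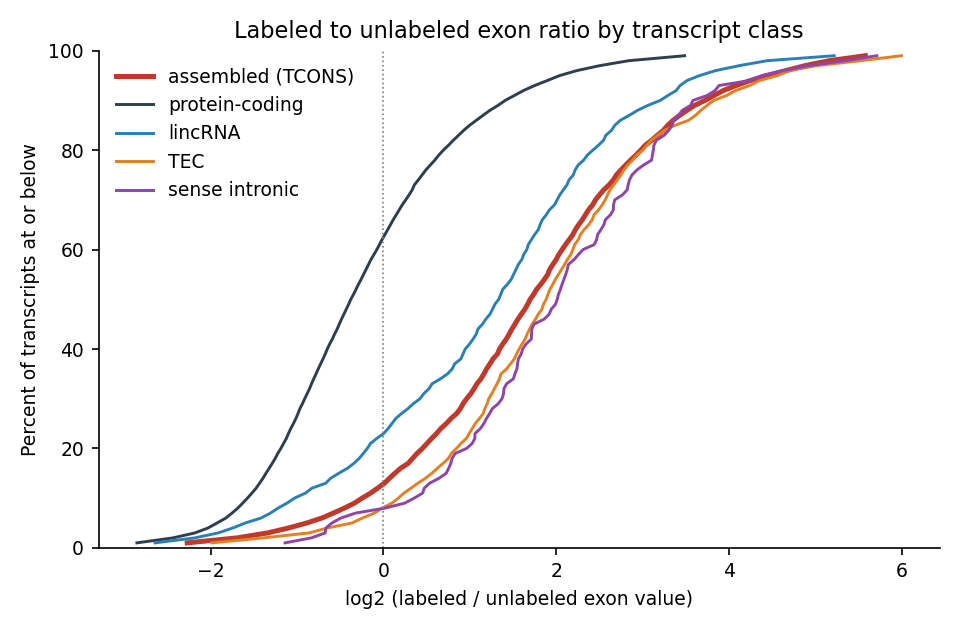
Cumulative percent of transcripts (vertical axis) by log2 ratio of labeled to unlabeled exon value (horizontal axis), for transcripts with both values above 0 and a mean above 1; 1 line per class, drawn from the 1st to the 99th percentile. The line of the assembled transcripts (median 1.70) runs beside those of TEC (1.88) and sense intronic (2.01) transcripts, right of lincRNA (1.33) and far right of protein-coding transcripts (-0.38).

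The ratio was much the same over most of the range of abundance. The median log2 ratio was 1.73 in the 3697 assembled transcripts with a mean exon value from 1 to 10, 1.75 in the 3305 from 10 to 100 and 1.44 in the 326 from 100 to 1000. For protein-coding transcripts the medians in these ranges were 0.11, -0.44 and -0.83, falling with abundance, so the distance between the classes widened. TEC transcripts had medians of 1.90, 1.91 and 1.20, and lincRNAs 1.37, 1.35 and 1.03. At 1 to 10, the unlabeled library listed 18.7% of assembled transcripts at 0, against 5.30% of protein-coding, 15.6% of TEC and 24.4% of lincRNA transcripts. Above 1000 the pattern changed. The 35 assembled transcripts there had a median of -0.26 with quartiles of -0.68 and 0.06. The median was also lower there than at 100 to 1000 in TEC transcripts (-0.50, 6 transcripts) and lincRNAs (0.37, 14 transcripts). In 469 protein-coding transcripts it was higher than at 100 to 1000, at -0.37, and thus close to that of the assembled ones.

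**Figure D3:**
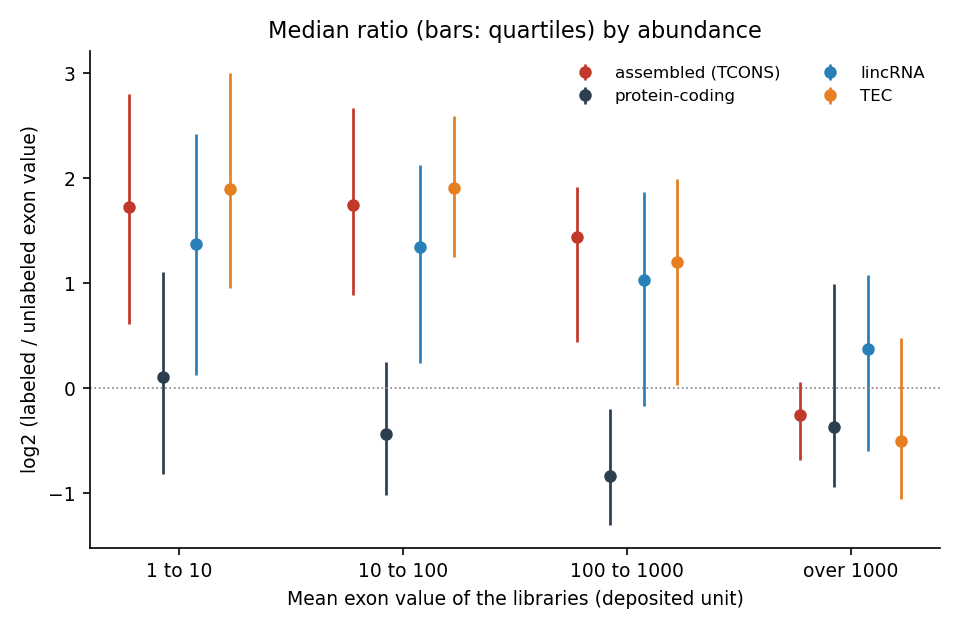
Median log2 ratio of labeled to unlabeled exon value (points) with quartiles (bars), by mean exon value of the libraries in the deposited unit, for 4 classes. The assembled transcripts stay between 1.44 and 1.75 up to a mean of 1000 and are at -0.26 above it, where 35 transcripts remain.

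Known transcripts give landmarks on this scale, each taken at its most abundant entry. Neat1, the nuclear noncoding RNA that builds paraspeckles, had values of 153.66 in labeled and 35.29 in unlabeled RNA, a log2 ratio of 2.12. The antisense RNA Kcnq1ot1 had 0.89, the abundant nuclear RNA Malat1 0.54 and the immediate early message Ier2 0.61. The messages of Nanog, Klf4 and Myc, transcription factors of pluripotent and growing cells, had -1.12, -1.40 and -1.94, and that of the elongation factor Eef1a1 had -0.56. For Actb, a cytoskeletal protein, and Gapdh, a glycolytic enzyme, the most abundant entry was not a coding one. It was a processed transcript of Actb at -2.08 and a retained intron transcript of Gapdh at -0.25. The median of the assembled transcripts lay above all of these but Neat1. Of the messages known as short-lived, Myc, Klf4 and Nanog had lower ratios than the long-lived Eef1a1, and Ier2 a higher one. The Actb entry, at -2.08, lay below all of these messages, and the Gapdh entry, at -0.25, above all of them but Ier2.

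A few abundant transcripts carried most of the assembled RNA in the unlabeled library, but not in the labeled one. Together the 9661 took 5.14% of the exon total in labeled RNA and 6.46% in unlabeled RNA, so that in sum the assembled transcripts were lower in labeled RNA although 83.6% of them were individually higher. The 6 highest in mean value held 21.7% of the assembled total in the labeled and 63.6% in the unlabeled library. Without these 6, the remaining transcripts took 4.03% of the same exon total in labeled and 2.35% in unlabeled RNA, and without the 35 above 1000 they took 3.17% and 1.17%.

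The highest was TCONS_00059158, with values of 11535.47 in labeled and 83782.5 in unlabeled RNA, a log2 ratio of -2.86. It ranked 6 among all 121429 exon entries by mean value. TCONS_00030317 had 11503.74 and 80513.87 (log2 ratio -2.81), and TCONS_00060065 had 9595.12 and 76302.31 (-2.99). All of these were far higher in the unlabeled library. TCONS_00019248 followed with 8914.26 and 61889.63 (-2.80), and TCONS_00020073 with 6891.04 and 44017.08 (-2.68). Lower in level but alike in direction were TCONS_00026128, with 1434.05 and 18166.7 (-3.66), TCONS_00014229, with 2016.54 and 11949.9 (-2.57), and TCONS_00013375, with 888.92 and 6365.68 (-2.84), the last named after its values had been seen. The log2 ratios of these 8 transcripts thus ran from -3.66 to -2.57, while their levels differed widely.

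Between these 8 transcripts and the other 27 with a mean above 1000 there was a gap in the ratio. The highest of the 8 was at -2.57 and the lowest of the 27 at -0.70, and no assembled transcript of this abundance lay between them. The 8 held 63.2% of the assembled total in unlabeled RNA and 12.1% in labeled RNA. A cut at a log2 ratio of -2 was set within this gap after the values had been seen, so the count of assembled transcripts below it follows from this choice. Below the cut were 46 of 1298 Ensembl-named transcripts above a mean of 1000 (3.54%), and the 8 of 35 assembled ones (22.9%). At a mean of at least 5000, a minimum also not set in advance, 7 of 11 assembled and 2 of 141 Ensembl-named transcripts were below the cut. The latter were a coding transcript of Ywhae, a 14-3-3 protein, and a noncoding one of Pabpc1, a poly(A)-binding protein. The most abundant Ensembl-named entry, Gm20594 on chromosome 6, had values of 71132.95 and 253462.61 and a log2 ratio of -1.83, which lies just above the cut. Reads that match several entries are divided among them by the authors' quantification, so the level of any single entry with near-identical copies is uncertain, and without their sequences this could not be examined for the 8.

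**Figure D4:**
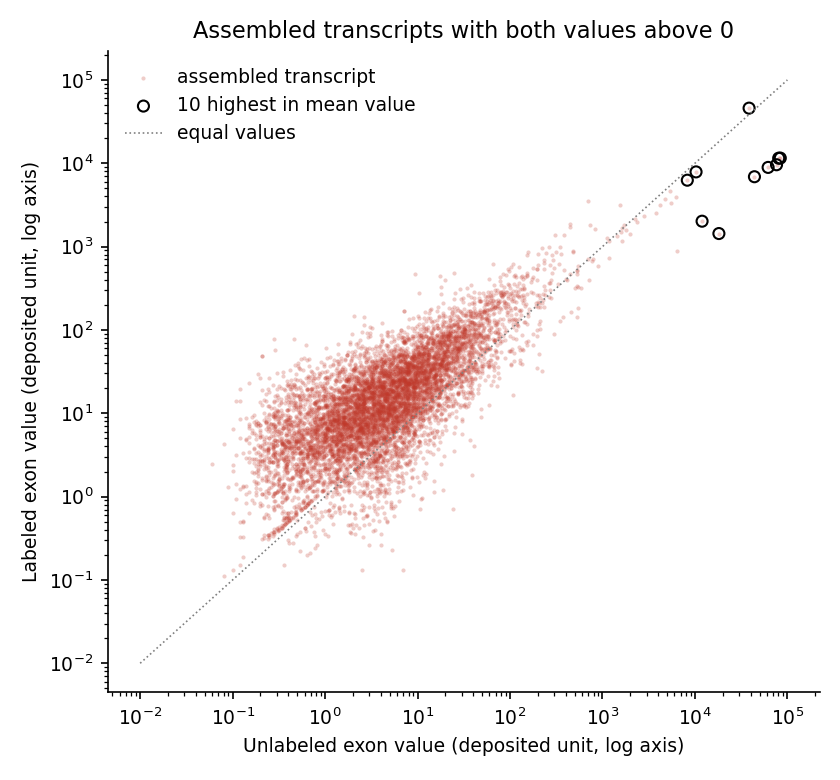
Labeled (vertical axis) against unlabeled (horizontal axis) exon value of the 7646 assembled transcripts with both values above 0, in the deposited unit on log axes; each point is 1 transcript, the dotted line marks equal values and open circles mark the 10 with the highest mean. Most points lie above the line, while 7 of the 10 circles lie well below it, at log2 ratios from -3.66 to -2.57.

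Most of the remaining transcripts above 1000 differed less between the pools. TCONS_00005210 had 45854.03 in labeled and 38514.39 in unlabeled RNA (log2 ratio 0.25), TCONS_00024666 had 7876.42 and 10285.95 (-0.39) and TCONS_00024027 had 6262.25 and 8271.89 (-0.40). Of the 27, 10 had a log2 ratio above 0, and 5 were at least 2-fold above the median of all transcripts. These 5 were named after their values had been seen. The highest ratio was that of TCONS_00022090, with 3499.64 in labeled and 692.80 in unlabeled RNA (2.34). TCONS_00016061 had 1878.32 and 442.08 (2.09), and TCONS_00015052 had 1728.36 and 443.08 (1.96). TCONS_00018297 had 1836.32 and 727.06 (1.34), and TCONS_00015989 had 3153.08 and 1556.32 (1.02).

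At the other end, the 5 transcripts with the highest ratio were nearly absent from unlabeled RNA. Their means, from 24.6 to 38.8, were above the upper quartile of the assembled transcripts (17.5). Among the 3667 with a mean of at least 10 and both values above 0, the highest was TCONS_00051701, at 77.32 in labeled and 0.28 in unlabeled RNA, a log2 ratio of 8.11. TCONS_00045416 had 49.22 and 0.21 (7.87), TCONS_00040843 had 49.03 and 0.21 (7.87). TCONS_00038408 had 58.12 and 0.29 (7.65) and TCONS_00052667 had 76.77 and 0.46 (7.38). All 5 rest on unlabeled values below 0.5, where the smallest value above 0 of any assembled transcript was 0.06, and their ratios are correspondingly uncertain.

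The ratio was also high in transcripts well above this limit. Of those with a mean of at least 100, named after their values had been seen, TCONS_00020610 had 474.76 in labeled and 9.33 in unlabeled RNA (log2 ratio 5.67). TCONS_00063109 had 275.80 and 10.49 (4.72), and TCONS_00002019 had 441.07 and 17.39 (4.66). The first of these was 50.9-fold higher in labeled RNA. The 99th percentile of the log2 ratio over the assembled transcripts was 5.57.

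Among the same 3667 transcripts, the lowest ratios included some at levels far below those of the abundant transcripts. TCONS_00025370 had 0.71 in labeled and 24.12 in unlabeled RNA (log2 ratio -5.09), TCONS_00005970 had 1.83 and 39.25 (-4.42) and TCONS_00029064 had 4.08 and 40.34 (-3.31). The other two of the 5 lowest were TCONS_00026128 and TCONS_00060065, described above among the most abundant. Over all 7363 assembled transcripts with a ratio and a mean above 1, only 5% lay below -0.89, and 1% below -2.27.

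Next, the assembled transcripts were divided by whether the table gives them an intron value. Only 574 of the 9661 have one (5.94%, interval 5.49 to 6.43%), against 81.5% of Ensembl-named transcripts. The share was similarly low in TEC transcripts (2.79%) and processed pseudogenes (9.04%), while it was 93.3% in lincRNAs. Of Ensembl-named transcripts without an intron value that are in GENCODE M21, 99.4% have a single exon, so a missing intron value goes with unspliced models there. For the assembled transcripts the number of exons was not analysed here.

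The 6951 assembled transcripts without an intron value that had a ratio showed a median log2 ratio of 1.75 (quartiles 0.81 and 2.73). The 412 with an intron value had 0.80 (quartiles -0.36 and 2.01), which is 0.94 lower, although the quartiles overlap. A ratio at least 2-fold above the median of all transcripts was found in 70.5% of the former and 45.6% of the latter, and at least 2-fold below in 4.01% and 13.1%. Ensembl-named transcripts without an intron value had a median of 0.83, higher than the -0.14 of all Ensembl-named transcripts. They were still 0.86 below the assembled transcripts as a whole. Ensembl-named transcripts with an intron value had a median of -0.23. In both sets the median was thus higher without an intron value than with one, and with or without one it was higher in the assembled than in the Ensembl-named transcripts. Against single noncoding classes the order depended on the split. With an intron value, the assembled median of 0.80 was below those of lincRNAs (1.29) and antisense RNAs (1.25). Without one, the assembled median of 1.75 was above theirs, which rest on few transcripts (1.51 in 106 lincRNAs and 1.59 in 107 antisense RNAs). It was below the 1.88 of TEC transcripts, which were not split, as only 2.79% of them have an intron value.

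For the transcripts with an intron value, the ratio of intron to exon value could be computed in each library, which the study uses to estimate processing and degradation rates. Both values were above 0 in both libraries, with a mean exon value above 1, in 360 of the 574. In the labeled library the intron to exon ratio had a median of 0.894, with quartiles of 0.451 and 1.70. In the unlabeled library the median was 0.420, with quartiles of 0.125 and 1.33. For protein-coding transcripts the medians were 0.570 and 0.111, and for lincRNAs 0.948 and 0.666. Thus the intron-bearing assembled transcripts had proportionally more intron in both pools than messenger RNA, and less of it in unlabeled RNA than lincRNAs at the median. Processed pseudogenes were close to them, at 0.847 and 0.458. The sets also differed in level, with a median mean exon value of 9.49 in the 360 and 24.1 in protein-coding transcripts. Whether level accounts for the difference was not tested.

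The model of the study requires a labeled intron to exon ratio that is below 1 and above the unlabeled ratio. Of the 360 assembled transcripts, 140 met both conditions (38.9%), against 66.7% of protein-coding transcripts, 30.1% of lincRNAs and 24.6% of antisense RNAs. A labeled ratio of 1 or more was found in 158 (43.9%, interval 38.9 to 49.1%) and a labeled ratio not above the unlabeled one in 96 (26.7%), with some in both groups. In these 360 the intron value itself had a median log2 ratio of labeled to unlabeled of 1.88, above the 0.65 of their exons. For protein-coding transcripts the intron median was 1.99 and the exon median -0.40, so the introns of both classes were close in this measure and their exons were further apart.

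**Figure D5:**
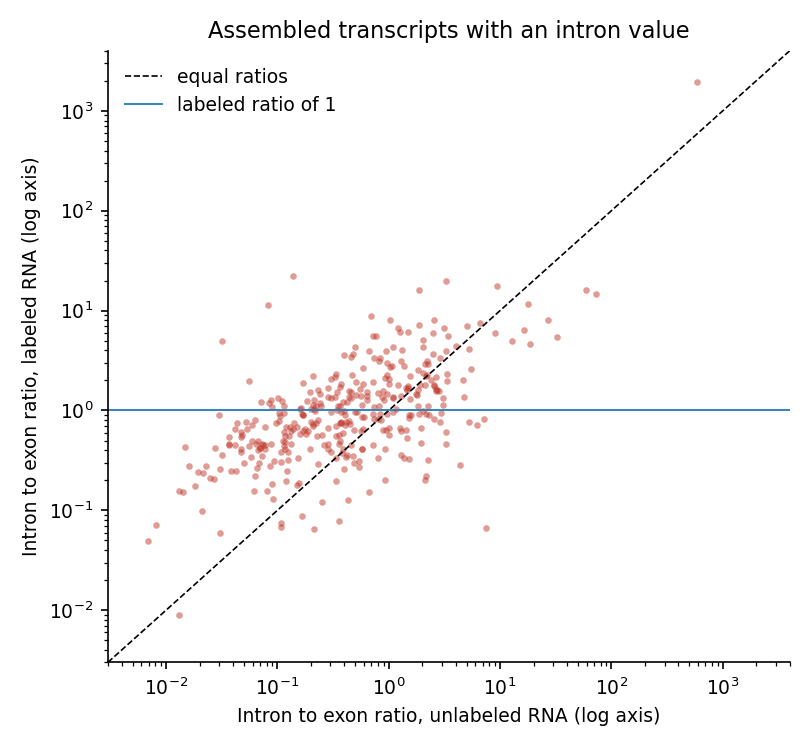
Intron to exon ratio in labeled (vertical axis) against unlabeled RNA (horizontal axis), log axes, for the 360 assembled transcripts in which it could be computed; each point is 1 transcript. The dashed line marks equal ratios and the solid line a labeled ratio of 1. Of the points, 140 lie above the former and below the latter. The point at the top right is TCONS_00041184, with a labeled exon value of only 0.38.

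Individual intron-bearing transcripts differed widely. The most abundant, TCONS_00050084, had exon values of 1251.51 in labeled and 1120.59 in unlabeled RNA and intron values of 801.84 and 1064.98, so its intron to exon ratio was higher in unlabeled (0.95) than in labeled RNA (0.641). TCONS_00059444 had exon values of 994.48 and 346.34 and intron values of 8.82 and 4.53, hardly any intron. TCONS_00042697 had more intron than exon in both pools, with exon values of 183.17 and 548.20 and intron values of 209.12 and 1679.14. The extreme was TCONS_00041184, whose exons were at 0.38 and 1.84 and whose introns were at 737.62 and 1091.69, a labeled intron to exon ratio of 1941. That ratio rests on a labeled exon value among the lowest above 0 and is correspondingly uncertain. These 4 transcripts were named after their values had been seen.

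Finally, the identifiers themselves carried some order. Their numbers run from 24 to 68211, and 4690 of the 9661 transcripts (48.5%) stand in 1866 runs of 2 or more consecutive numbers, the longest with 10 transcripts. Transcripts with consecutive numbers were more alike than others. Across 1929 such pairs the absolute difference in log2 ratio had a median of 1.13, against 1.48 across 2123 pairs of neighbours whose numbers were 11 to 100 apart. Spearman's correlation of the log2 mean exon value was 0.453 in the former and 0.023 in the latter, and that of the log2 ratio was 0.219 and 0.030. Correlation of the level fell off with the distance between numbers, to 0.260 at a distance of 2, 0.202 at 3 to 5 and 0.059 at 6 to 10. Members of a pair share both libraries, and whether neighbouring numbers stand for neighbouring or overlapping loci was not tested.

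Some of the abundant transcripts also had consecutive numbers. Of the 35 with a mean above 1000, 12 had a neighbour in number that was also above 1000, in 4 runs. Over all assembled transcripts, 0.36% had such a mean, and the number of neighbours to be found without any order was not tested. As the runs were chosen for a mean above 1000 in each transcript, their likeness in level follows from that choice. The longest ran from TCONS_00042291 to TCONS_00042294, with labeled values of 4600.85, 1345.45, 2555.67 and 1396.89, unlabeled values of 5357.06, 1427.15, 3789.87 and 1992.33 and log2 ratios from -0.57 to -0.09. TCONS_00024026, TCONS_00024027 and TCONS_00024028 had log2 ratios of -0.26, -0.40 and 0.03, and TCONS_00043708, TCONS_00043709 and TCONS_00043710 had -0.05, -0.70 and -0.45. TCONS_00024665 and TCONS_00024666 had -0.66 and -0.39. All 4 runs lay between -0.70 and 0.03, and they were named after their values had been seen. The 35 transcripts together had quartiles of -0.68 and 0.06, so this range is not particular to the runs. None of the 8 abundant transcripts with a log2 ratio below -2 had such a neighbour. Keeping 1 transcript per run of consecutive numbers gave a median log2 ratio of 1.72 over the assembled transcripts, next to 1.70 over all.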

How the data were processed

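RNA of 1 labeling experiment was measured in 2 libraries, labeled and unlabeled. Per the labels and the study's methods, the authors discarded reads that mapped to ribosomal RNA, aligned the rest to exon and intron sequences (Ensembl 91, GRCm38) with STAR 2.5.0 and quantified them with RSEM. The deposited values are relative abundances, called TPM, with 2 decimals. The assembly that made the TCONS transcripts is not given in the sources used here. Biotypes, symbols and exon numbers came from GENCODE M21 (GRCm38), which holds 98.8% of the Ensembl-named transcripts.

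The log2 ratio used no pseudocount. Its set held transcripts with both values above 0 and a mean above 1, a threshold applied in the deposited unit. Transcripts counted as past the fold had a ratio at least 2-fold from the median of all transcripts. The transcripts, lists and rules were chosen with earlier results of these data known. Transcripts were named by rule: the 10 with the highest mean, the 5 highest and 5 lowest in ratio with a mean of at least 10, and the 3 highest among those at 0 in one library, each way; others are marked as named after their values had been seen. Depth is unknown. Alternatives varied the minimum, the zeros, the scaling and the transcripts compared. The code was tested on simulated data. Computations ran in Python 3.11.15 with pandas 2.3.3 and numpy 2.4.6, intervals came from scipy 1.17.1, and plots from matplotlib 3.10.9.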

Additional observations from a re-analysis of the deposited data

How the results depend on the processing

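Each ratio sets the labeled against the unlabeled library of the same replicate. With 1 library per pool used here, no paired test over replicates was possible, and no result comes from a test. For the same reason no library could be left out. A share of transcripts was taken as moved outside its Wilson interval, and a median outside its 95% order-statistic interval over transcripts. For the distance from Ensembl-named transcripts, the interval was that of the assembled median alone, with the Ensembl-named median held fixed. A share of the exon total was taken as moved when it changed by over 1.5 times. Of 30 alternatives, 10 left the value in place, 19 moved it and 1 turned its sign; the cause was not tested. Among transcripts above 0 in at least 1 library, 1.73% were at 0 in labeled and 15.4% in unlabeled RNA. The share of the unlabeled exon total was 2.37% without the 100 highest exon entries and 2.46% without the 6 highest assembled transcripts, each time left out of the total as well. With values of 0 kept and a pseudocount of 1, the median log2 ratio was 1.38, its distance from Ensembl-named transcripts 1.38, the share 2-fold above 61.7% and the share 2-fold below 3.73%. With exon totals equalized without the 100 highest entries, every log2 ratio rose by 0.07 and the median was 1.77. Without a minimum the distance was 1.76 and the share 2-fold above 67.1%. With a mean above 10 they were 2.03 and 76.6%, and the share 2-fold below was 2.02%. The distance was 2.07 from protein-coding transcripts, 0.36 from lincRNAs, 0.86 from Ensembl-named transcripts without an intron value, 1.68 within ranges of abundance and -0.18 from TEC transcripts. The median mean exon value was 9.34 among transcripts with both values above 0. The comparison with TEC, the scaling, 1 transcript per run and leaving out 6 transcripts were added after seeing the data.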
